A study of Mus musculus with 9 samples.

Results

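The genes of the mitochondrial respiratory chain and of the ATP synthase were examined in arrays of mouse tissue from resistant thymus tumors, which the labels describe as XIST resistant, from other thymus tumors and from normal thymus. Members were all genes on the array whose symbol begins with Nduf (complex I), with Sdha, Sdhb, Sdhc or Sdhd (complex II), with Uqcr (complex III), with Cox4 to Cox8 (complex IV) or with Atp5 (complex V). Only probe sets with a single gene symbol were taken. This gave 94 genes on 185 probe sets, of 18193 genes on 34945 probe sets with a single symbol. Complex I had 44 genes, complex II 8, complex III 8, complex IV 17 and complex V 17. The symbols also take in assembly factors (Ndufaf and Sdhaf genes), which build the complexes without staying in them. The rule reads gene symbols only.

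Total RNA was extracted with Trizol, and biotin-labelled cRNA made from 5 micrograms of it was hybridised to the Affymetrix Mouse430_2 array. The 3 groups were resistant tumor, tumor and normal thymus, with 3 arrays each. The labels give no strain, sex, age, genotype or treatment for any group, and do not say how resistance was acquired or whether each array of a group stands for its own animal. The p-values below therefore rest on the spread among the arrays, and that spread may be technical. Values are MAS5 signals in arbitrary units on the deposited scale, and all changes are differences of log2 signal.

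The respiratory chain passes electrons from NADH (complex I) and succinate (complex II) through complex III and cytochrome c to oxygen at complex IV. Complexes I, III and IV pump protons across the inner mitochondrial membrane, and the ATP synthase, complex V, lets them flow back to make ATP. Most subunits are encoded in the nucleus, as are all the genes described here, while a few catalytic subunits come from mitochondrial DNA. Several subunits of complex IV exist as paired isoforms, one found in most tissues and one restricted to muscle, testis, lung or other tissues. Normal thymus is made up mostly of thymocytes, many of them dividing.

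The arrays fell into 2 sets by their poly-A spike-in controls, RNAs added before labelling: resistant tumor 1 and 2, tumor 1 and normal thymus 1 had almost no spike-in signal, and the other 5 arrays had it. Median signals were 23.6 to 25.8 in the arrays without and 13.9 to 17.8 in the arrays with spike-in signal. The sets also differed in the members: 70 of the 92 tested members were lower in normal thymus 1 than in the mean of normal thymus 2 and 3, with a median log2 difference of -0.18 against -0.05 for all genes tested. Each set held all 3 groups, so changes are also given within each set and with the set as a term of the fit. The summed signal of 12 thymocyte markers was 12257 to 14818 in resistant tumor, 13986 to 14670 in tumor and 19921 to 21735 in normal thymus. Of these 12, 8 fell and 1 rose in each tumor group. All 9 thymic epithelium markers fell in tumor and 8 fell in resistant tumor. In bulk tissue, fewer cells of a type and less RNA per cell cannot be told apart, and the part of this change in the values below was not tested.

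Most respiratory chain genes differed little between the groups, and most that differed were higher in the tumors. Of the 94 genes, 92 had a probe set at or above the array median on at least 3 of the 9 arrays and were tested. The other two were Cox7b2, with signals of 0.22 to 4.3, and Ndufb4, with signals of 2.6 to 8.1. A total of 88 members lay at or above the median on all 9 arrays. In tumor against normal thymus, 25 members rose and 3 fell at an adjusted p under 0.05 (limma, Benjamini-Hochberg over 11671 genes). In this comparison 42.4% of all genes tested were called, 23.3% higher and 19.1% lower. The share of members that rose, 27.2%, was near that background, and the share that fell, 3.26%, was below it. In resistant tumor against normal thymus, 36 members rose (39.1%) and 2 fell (2.17%), where 43.3% of all genes were called, 23.1% higher and 20.2% lower. The median log2 change of the members was 0.22 in tumor and 0.23 in resistant tumor, against 0.05 and 0.06 for all genes tested. Large changes were few: 2 members in tumor (2.17%) and 4 in resistant tumor (4.35%) had an absolute log2 change of 1 or more, against 23.9% and 24.2% of all genes tested.

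These counts moved with single arrays and with the scaling. In tumor the number of members that rose was 15 without tumor 2, 14 without tumor 3 and 16 without normal thymus 2. In resistant tumor it was 18 without resistant tumor 2, 23 without resistant tumor 3, 18 without normal thymus 1 and 18 without normal thymus 2. With arrays set to equal medians, only Cox6b2 and Cox4i2 were called higher in either comparison. The share of all genes called with that scaling is not given here. That scaling shifts every gene of an array alike, so it cannot alter the members' median change relative to that of all genes. This difference was 0.17 in tumor and 0.16 in resistant tumor. With quantile normalization, which can alter it, the difference was 0.08 in each. With the spike-in set as a term, 44 members rose (47.8%) and 5 fell in tumor, against 32.6% and 26.1% of all genes, and 54 rose (58.7%) and 3 fell in resistant tumor, against 32% and 26.8% of all genes. Within the arrays without and with spike-in signal, the median log2 change of the members was 0.17 and 0.25 in tumor, and 0.28 and 0.28 in resistant tumor. For 38 members all tumor arrays lay above all normal thymus arrays and for 4 all lay below, a lack of overlap seen in 55.3% of all genes (30.1% higher and 25.2% lower). In resistant tumor these counts were 44 and 3, against 54.6% of all genes (28.9% higher and 25.7% lower). All 28 members called in tumor and all 38 called in resistant tumor had the same sign in both sets. So did 4942 of the 4943 genes called in tumor and all 5049 called in resistant tumor. The calls were made on these same arrays, so this likeness of sign is no separate support for them.

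**Figure D1:**
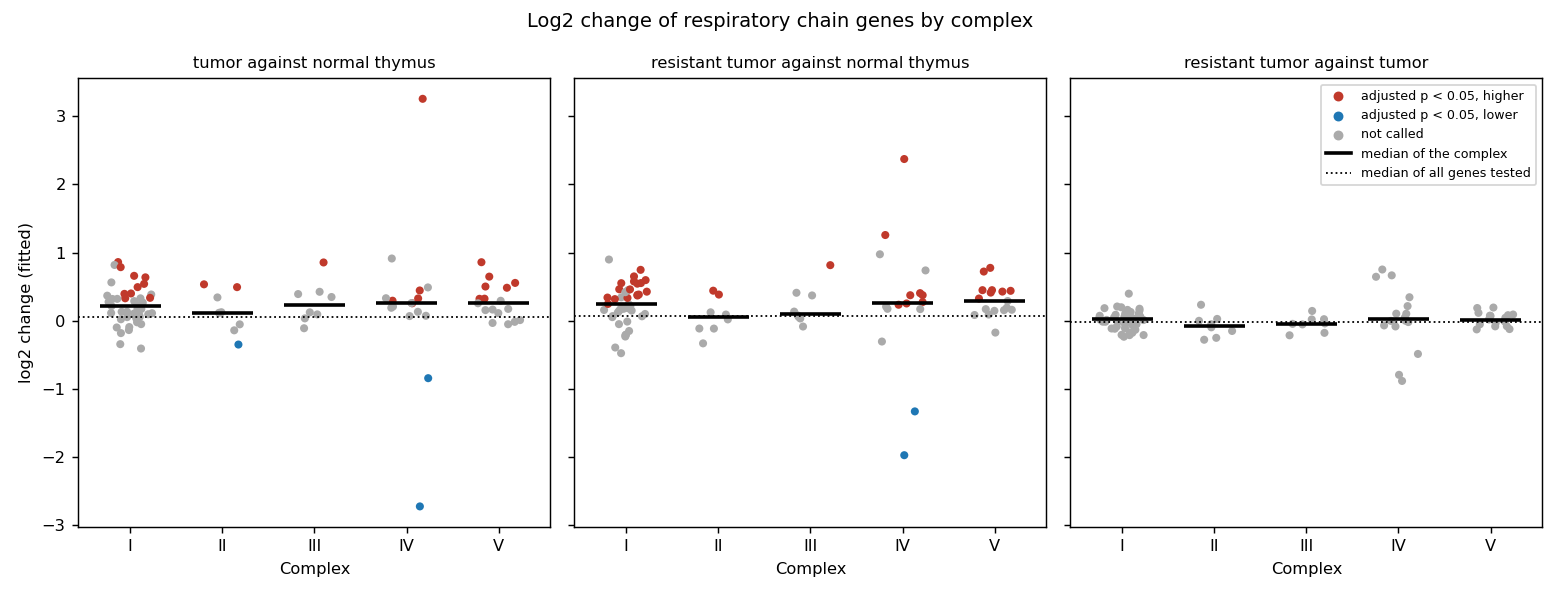
Fitted log2 change of each of the 92 tested respiratory chain genes (points, spread sideways for legibility) by complex in the 3 comparisons, with red points called higher, blue points called lower, thick bars at the median of the complex and a dotted line at the median of all genes tested. Most points lie between -0.5 and 1, Cox6b2 (3.26 and 2.37) and Cox8b (-2.73 and -1.97) of complex IV stand apart against normal thymus, and no gene is called between resistant tumor and tumor.

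By complex, the median log2 change in tumor was 0.21 for complex I, 0.12 for complex II, 0.24 for complex III, 0.26 for complex IV and 0.26 for complex V. In resistant tumor it was 0.24, 0.05, 0.11, 0.26 and 0.29 in the same order. With quantile normalization, the medians minus that of all genes were 0.08, 0.06, 0.11, 0.09 and 0.11 in tumor. In resistant tumor they were 0.12, 0.02, -0.04, 0.05 and 0.12 with that normalization. Averaged over 73 structural subunits, leaving out assembly factors and tissue-restricted isoforms, the mean log2 signal relative to the normal thymus mean was 0.14, 0.24 and 0.30 in resistant tumor, 0.06, 0.29 and 0.33 in tumor and -0.10, 0.00 and 0.10 in normal thymus. The resistant tumor arrays all lay above the normal thymus arrays, while tumor 1 lay below normal thymus 3. For complex V the values were 0.23, 0.35 and 0.32 in resistant tumor, 0.15, 0.30 and 0.38 in tumor and -0.08, -0.01 and 0.09 in normal thymus, so both tumor groups lay above every normal thymus array. In complexes II, III and IV both tumor groups overlapped normal thymus. There resistant tumor 1 (0.11, 0.13 and 0.03) and tumor 1 (0.05, -0.003 and -0.01) lay below normal thymus 3 (0.13, 0.14 and 0.06). Over all genes tested the same mean was -0.08 to 0.03 on every array.

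**Figure D2:**
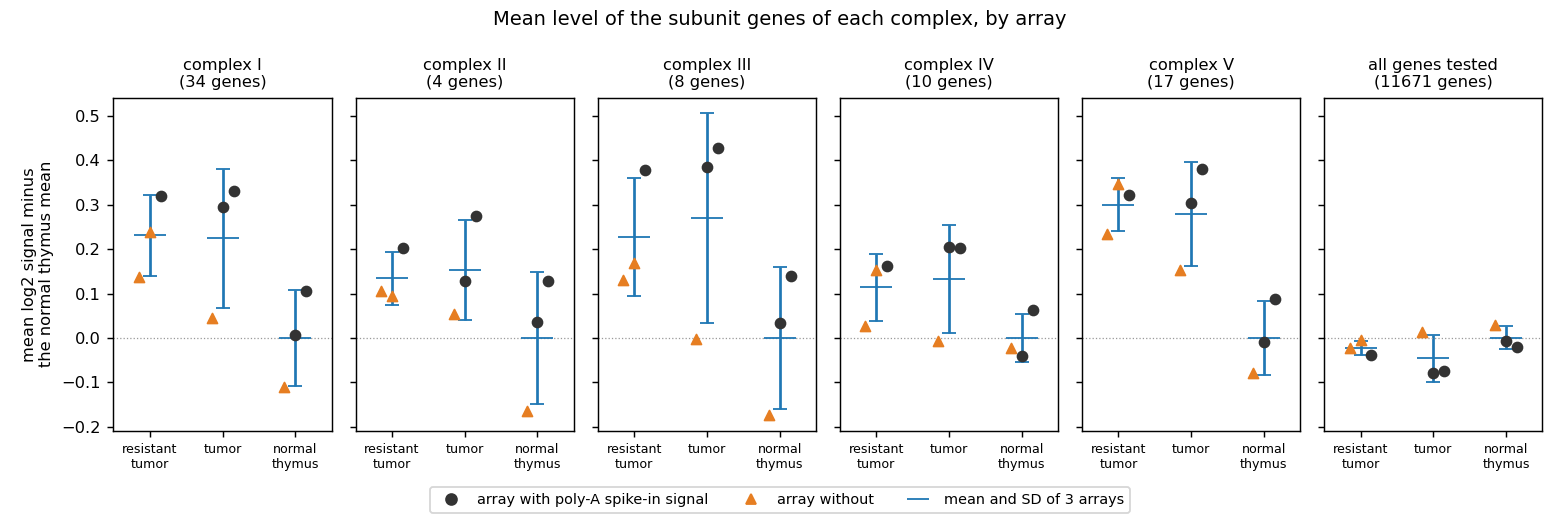
Mean log2 signal of the structural subunit genes of each complex, minus the mean of the 3 normal thymus arrays, for each array, with blue bars for the mean and SD of 3 arrays and orange triangles for arrays without spike-in signal. In complex V all tumor and resistant tumor arrays (0.15 to 0.38) lie above the normal thymus arrays (-0.08 to 0.09), and in complex I tumor 1, at 0.05, lies within the normal thymus range. In complexes II, III and IV both tumor groups overlap normal thymus.

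Complex I, NADH dehydrogenase, is the entry point for electrons from NADH. In resistant tumor 17 of its 43 tested genes rose (39.5%, against 23.1% of all genes), and in tumor 10 rose (23.3%, the same share as of all genes). None fell in either, against 20.2% and 19.1% of all genes. The genes that rose in tumor were Ndufa7, Ndufa8, Ndufa10, Ndufa12, Ndufb2, Ndufb8, Ndufc1, Ndufc2, Ndufv1 and the assembly factor Ndufaf6. Those that rose in resistant tumor were Ndufa7, Ndufa10, Ndufa12, Ndufab1, Ndufb2, Ndufb5, Ndufb6, Ndufb8, Ndufb9, Ndufb10, Ndufc1, Ndufc2, Ndufv1, Ndufv2 and the assembly factors Ndufaf2, Ndufaf6 and Ndufaf7. Of the 6 hydrophilic core genes on the array, which carry the NADH site and the iron-sulfur clusters, Ndufv1 rose in both groups and Ndufv2 in resistant tumor. By their brightest probe sets, the changes of these core genes ranged from -0.10 to 0.64 in tumor and from -0.21 to 0.46 in resistant tumor, with Ndufs1 lowest in both. Tested singly, dimmer Ndufs8 probe sets were called higher in tumor (0.66 and 0.58) and another in resistant tumor (0.40). A dimmer Ndufv2 probe set was called higher in both (0.31 and 0.32). The other probe sets of Ndufs8 were not called, and none of either gene was called lower. Among the Ndufb subunits, which sit in the membrane arm, 6 of 10 tested rose in resistant tumor (60%) and 2 in tumor (20%, below the share of all genes). Of 14 Ndufa genes 4 rose in each group (28.6%, near the share of all genes), and of 8 assembly factors 3 rose in resistant tumor and 1 in tumor. The assembly factor Ndufaf4 was not called by its brightest probe set. A dimmer Ndufaf4 probe set, tested singly, was called higher in tumor (0.87, adjusted p = 0.020) and resistant tumor (0.97, adjusted p = 0.013).

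Ndufa10, an accessory subunit of the membrane arm, had signals of 965, 1011 and 1391 in resistant tumor, 984, 1446 and 1479 in tumor, and 575, 748 and 817 in normal thymus. Every tumor and resistant tumor array lay above every normal thymus array. Its log2 change was 0.86 ± 0.20 in tumor (SE, adjusted p = 0.0074) and 0.65 ± 0.20 in resistant tumor (adjusted p = 0.027). Ndufb2 had 1222, 1299 and 1580 in resistant tumor, 1117, 1564 and 1636 in tumor, and 749, 934 and 1038 in normal thymus, again without overlap, with changes of 0.66 ± 0.18 in tumor (adjusted p = 0.013) and 0.60 ± 0.18 in resistant tumor (adjusted p = 0.021). Ndufaf6, an assembly factor, had 90.1, 89.4 and 117 in resistant tumor, 118, 114 and 114 in tumor, and 74.0, 64.6 and 62.6 in normal thymus. The tumor arrays lay close together and above normal thymus, and it changed by 0.79 ± 0.15 in tumor (adjusted p = 0.0026) and 0.55 ± 0.15 in resistant tumor (adjusted p = 0.016). The tumor calls of Ndufa10 and Ndufaf6 held without any 1 array. The resistant tumor call of Ndufa10 was lost without resistant tumor 3, normal thymus 1 or normal thymus 2 (adjusted p up to 0.093), and that of Ndufaf6 without normal thymus 2 or 3 (up to 0.066). Ndufb2 lost its tumor call without tumor 2 or 3 (up to 0.056), and its resistant tumor call without resistant tumor 3 or normal thymus 1 (up to 0.073).

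Ndufb9, a membrane-arm subunit, had 1477, 2150 and 2660 in resistant tumor, 1514, 1805 and 2107 in tumor, and 1048, 1250 and 1365 in normal thymus. It rose by 0.75 ± 0.21 in resistant tumor (adjusted p = 0.017), and in tumor its change of 0.56 ± 0.21 did not pass (adjusted p = 0.054). The rise was not called without resistant tumor 2 or normal thymus 1 (adjusted p up to 0.058). Groups did not overlap in either comparison with normal thymus. Ndufs4, an accessory subunit of the NADH-oxidising module, could not be given a direction. Its brightest probe set, with 402 to 557 in resistant tumor, 497 to 624 in tumor and 570 to 695 in normal thymus, was not called (adjusted p = 0.35 in tumor and 0.053 in resistant tumor). Of its dimmer probe sets, one was called higher in tumor (0.66) and one called lower (-1.71) when probe sets were tested singly.

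Complex II, succinate dehydrogenase, belongs to both the respiratory chain and the tricarboxylic acid cycle. Its 4 subunit genes did not move together. Sdha, the flavoprotein that oxidises succinate, had 1275, 1107 and 1040 in resistant tumor, 1221, 1152 and 1164 in tumor, and 837, 798 and 879 in normal thymus. All tumor arrays of both kinds lay above normal thymus, with log2 changes of 0.49 ± 0.10 in tumor (adjusted p = 0.0030) and 0.44 ± 0.10 in resistant tumor (adjusted p = 0.0054). Sdhb, the iron-sulfur subunit that takes electrons from Sdha, had 925, 947 and 1012 in resistant tumor, 792, 760 and 906 in tumor, and 972, 1050 and 1104 in normal thymus. It fell in tumor by 0.35 ± 0.10 on the log2 scale (adjusted p = 0.018), with no overlap between tumor and normal thymus. Without tumor 2, normal thymus 2 or normal thymus 3 that call was lost (adjusted p = 0.066, 0.060 and 0.075). In resistant tumor the change of Sdhb was -0.12 ± 0.10 (adjusted p = 0.38), and the difference between resistant tumor and tumor, 0.23 ± 0.10, did not pass either (adjusted p = 0.65).

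The membrane anchors Sdhc and Sdhd were not called in either comparison. Sdhc had 550, 605 and 910 in resistant tumor, 577, 874 and 1011 in tumor, and 457, 715 and 767 in normal thymus, and was lowest in each group on arrays without spike-in signal. A dimmer Sdhc probe set, tested singly, was called higher in resistant tumor (0.37, adjusted p = 0.045) and not in tumor (0.26, adjusted p = 0.14). Sdhd lay at 527 to 595 in resistant tumor, 537 to 597 in tumor and 490 to 550 in normal thymus, with a change of 0.12 ± 0.10 in tumor (adjusted p = 0.35). Of the 4 Sdh assembly factors only Sdhaf4, which helps assemble flavinylated Sdha, was called. It had 264, 244 and 229 in resistant tumor, 254, 252 and 316 in tumor, and 170, 187 and 209 in normal thymus, and rose by 0.53 ± 0.14 in tumor (adjusted p = 0.010) and 0.38 ± 0.14 in resistant tumor (adjusted p = 0.044). The resistant tumor call was lost without resistant tumor 1 or 2, tumor 2, or normal thymus 1 or 2 (adjusted p up to 0.13), while both calls of Sdha held without any 1 array.

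In complex III, which passes electrons from ubiquinol to cytochrome c, 1 of 8 genes was called in each comparison (12.5%). Of all genes tested, 42.4% were called in tumor and 43.3% in resistant tumor. Uqcr11, its smallest accessory subunit, had 1472, 1511 and 1874 in resistant tumor, 1305, 1942 and 1786 in tumor, and 774, 960 and 1029 in normal thymus. All 6 tumor arrays were above normal thymus, and the change was 0.86 ± 0.17 in tumor (adjusted p = 0.0030) and 0.82 ± 0.17 in resistant tumor (adjusted p = 0.0039). Both calls held without any 1 array. The core proteins Uqcrc1 and Uqcrc2 and the Rieske iron-sulfur protein Uqcrfs1 were not called, with changes of 0.35, -0.11 and 0.09 in tumor and 0.13, 0.03 and -0.09 in resistant tumor. Over the complex the changes ran from -0.11 to 0.86 in tumor and from -0.09 to 0.82 in resistant tumor. A dimmer probe set of Uqcr10, tested singly, was called lower in resistant tumor (-0.60, adjusted p = 0.023), while the brightest was not called (0.41).

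Complex V is the ATP synthase itself. Of its 17 genes 7 rose in tumor (41.2%) and 8 in resistant tumor (47.1%), against 23.3% and 23.1% of all genes, and none fell. The soluble F1 part makes ATP. By their brightest probe sets, the genes of its β, γ, δ and ε subunits (Atp5b, Atp5c1, Atp5d and Atp5e) rose in both groups, but a dimmer Atp5c1 probe set was called lower. Atp5a1, for the α subunit, did not pass, with changes of 0.16 in tumor and 0.08 in resistant tumor. Of the 3 genes that encode the same mature c subunit of the proton-driven ring, Atp5g1 and Atp5g2 rose in both groups and Atp5g3 was not called (0.11 in tumor and 0.15 in resistant tumor). Of the 9 other genes, for stalk and membrane subunits, Atp5o rose in both groups and Atp5mpl in resistant tumor, within a range of -0.05 to 0.48 in tumor and -0.17 to 0.45 in resistant tumor.

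Atp5g1 had 939, 1126 and 1397 in resistant tumor, 901, 1362 and 1429 in tumor, and 491, 723 and 829 in normal thymus. Groups did not overlap, and in each group the arrays without spike-in signal were the lowest. It rose by 0.86 ± 0.24 in tumor (adjusted p = 0.016) and 0.78 ± 0.24 in resistant tumor (adjusted p = 0.025). Atp5g2 had 1719, 2223 and 2470 in resistant tumor, 1815, 2035 and 2188 in tumor, and 1148, 1295 and 1416 in normal thymus. It too separated both tumor groups from normal thymus, by 0.65 ± 0.14 in tumor (adjusted p = 0.0052) and 0.72 ± 0.14 in resistant tumor (adjusted p = 0.0029). Both calls of Atp5g2 held without any 1 array. Atp5g1 lost its tumor call without tumor 2, tumor 3 or normal thymus 1 (adjusted p up to 0.064), and its resistant tumor call without resistant tumor 2, resistant tumor 3 or normal thymus 1 (up to 0.083).

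Atp5e, the ε subunit of the F1 stalk, had 1554, 1753 and 1854 in resistant tumor, 1503, 2115 and 2070 in tumor, and 1093, 1352 and 1404 in normal thymus, with changes of 0.55 ± 0.15 in tumor (adjusted p = 0.015) and 0.43 ± 0.15 in resistant tumor (adjusted p = 0.045). Atp5d, the δ subunit beside it, had 1946, 2130 and 2406 in resistant tumor, 1853, 2471 and 2434 in tumor, and 1506, 1519 and 1715 in normal thymus, with changes of 0.50 ± 0.13 (adjusted p = 0.011) and 0.45 ± 0.13 (adjusted p = 0.020) in tumor and resistant tumor. For both genes every tumor array lay above every normal thymus array. Atp5e lost its tumor call without tumor 2, tumor 3 or normal thymus 1 (adjusted p up to 0.061), and its resistant tumor call without resistant tumor 2, resistant tumor 3, tumor 3 or any 1 normal thymus array (up to 0.14). Atp5d lost the resistant tumor call without resistant tumor 3, normal thymus 1 or normal thymus 2 (up to 0.068). Atp5c1, the γ subunit that forms the rotor shaft, had conflicting probe sets. The one with the highest signal had 2394 to 2511 in resistant tumor, 2134 to 2380 in tumor and 1758 to 1898 in normal thymus, and rose by 0.32 in tumor and 0.44 in resistant tumor. The other, with 88.5 to 106 in resistant tumor, 99.5 to 109 in tumor and 145 to 153 in normal thymus, was called lower (-0.50 and -0.60).

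Complex IV, cytochrome c oxidase, held the largest changes among the members in both directions. In resistant tumor 8 of 16 tested genes rose (50%, against 23.1% of all genes), and in tumor 5 rose (31.2%, against 23.3%). In each group 2 fell (12.5%, against 20.2% and 19.1%). The rises outside Cox6b2 and Cox4i2 were small, from 0.26 to 0.44 in tumor (Cox7a2, Cox4i1, Cox5b and Cox8a) and from 0.23 to 0.40 in resistant tumor (those 4 with Cox5a and Cox6c). Cox5b, a subunit on the matrix side, had 2737, 2891 and 2992 in resistant tumor, 2499, 2932 and 2929 in tumor, and 2257, 2091 and 2304 in normal thymus. Every tumor array was higher than every normal thymus array (0.33 ± 0.09 in tumor, adjusted p = 0.015, and 0.37 ± 0.09 in resistant tumor, adjusted p = 0.0078). The tumor call was lost without tumor 2, tumor 3 or normal thymus 2 (adjusted p up to 0.066). Cox6c rose in resistant tumor (0.40 ± 0.10, adjusted p = 0.0072) and was not called in tumor (0.19 ± 0.10, adjusted p = 0.14), and the difference between resistant tumor and tumor was 0.21 ± 0.10 (adjusted p = 0.68). A dimmer Cox6c probe set, tested singly, was called higher in both tumor (0.28, adjusted p = 0.041) and resistant tumor (0.65, adjusted p = 7.4e-04).

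Cox6b2 rose most of all 92 members. It encodes an isoform of subunit VIb described mainly in testis, and subunit VIb lies at the contact between the monomers of the cytochrome c oxidase dimer. Signals were 564, 721 and 1103 in resistant tumor, 1148, 1461 and 1679 in tumor, and 116, 158 and 177 in normal thymus. No groups overlapped: all resistant tumor arrays lay above all normal thymus arrays, and all tumor arrays lay above all resistant tumor arrays. Cox6b2 was 9.56-fold higher in tumor than in normal thymus (log2 change 3.26 ± 0.25, adjusted p = 1.1e-05) and 5.18-fold higher in resistant tumor (2.37 ± 0.25, adjusted p = 7.5e-05). Within the arrays without and with spike-in signal the log2 changes were 3.31 and 3.23 in tumor, and 2.46 and 2.72 in resistant tumor. It was called under all 19 alternative settings with a test in both comparisons. Its widespread partner Cox6b1 was not called: it had 2181, 2542 and 2727 in resistant tumor, 2095, 2685 and 2690 in tumor, and 2007, 2198 and 2224 in normal thymus, with changes of 0.21 ± 0.12 in both (adjusted p = 0.20 in each).

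**Figure D3:**
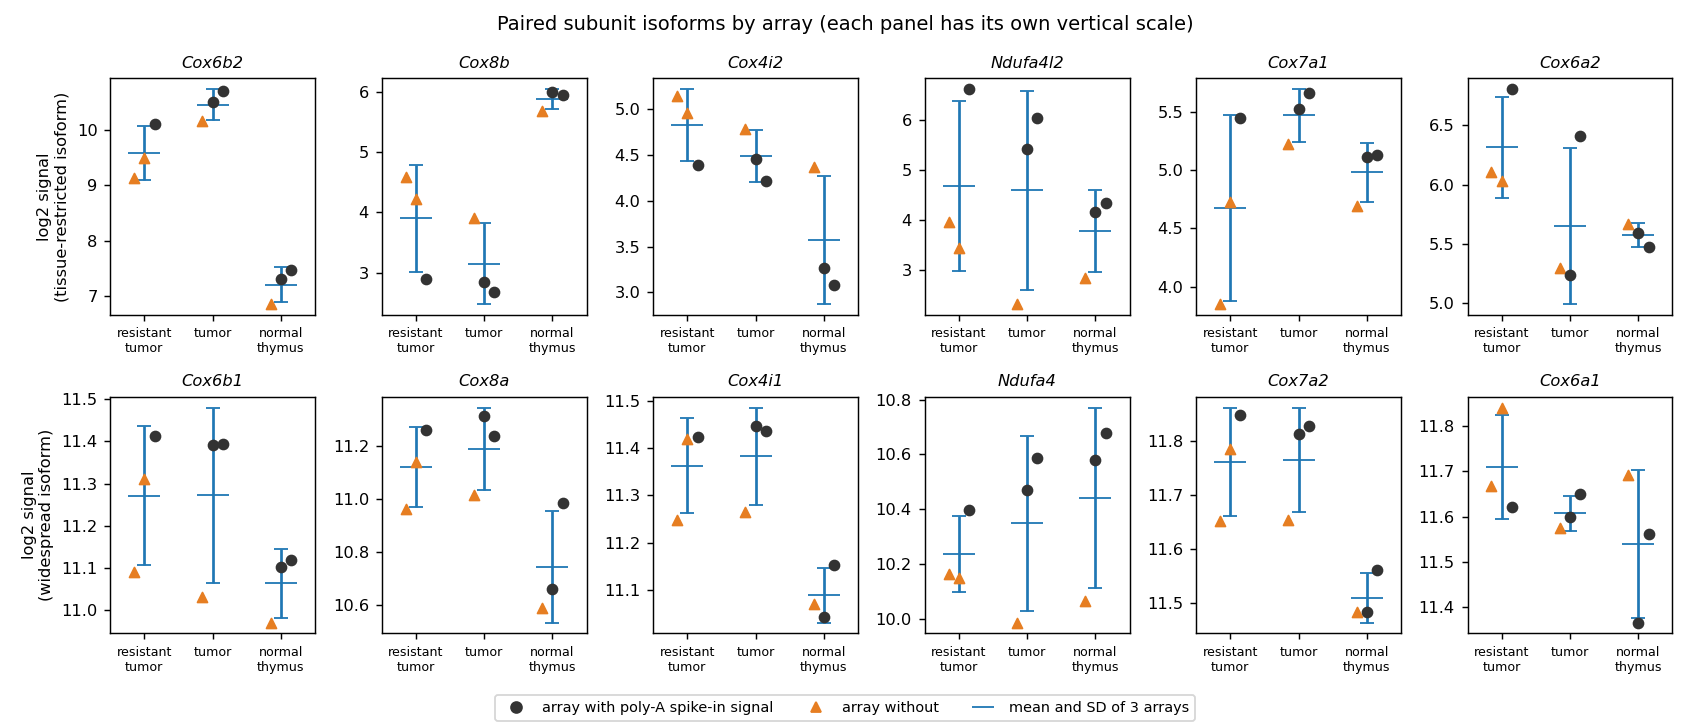
Log2 signal per array of tissue-restricted isoforms (upper row) and of the widespread isoform of the same subunit (lower row), with blue bars for the mean and SD of 3 arrays, orange triangles for arrays without spike-in signal and a separate vertical scale in each panel. Cox6b2 lies higher in all tumor and resistant tumor arrays (564 to 1679 on the linear scale) than in normal thymus (116 to 177), Cox8b lies lower, Ndufa4l2 overlaps between groups, and Cox7a1 overlaps between resistant tumor and normal thymus.

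Cox8b went the other way. It encodes the isoform of subunit VIII found in heart, skeletal muscle and brown fat, and had signals of 24.2, 18.6 and 7.4 in resistant tumor, 15.1, 7.2 and 6.4 in tumor, and 51.4, 63.7 and 61.8 in normal thymus. Every tumor array was lower than every normal thymus array. All 3 tumor arrays were under the array median, so the difference is a bound, at least 3.36-fold lower in tumor (log2 change -2.73 ± 0.49, adjusted p = 0.0017), taking a gene under the median at the median itself. In resistant tumor 1 of 3 arrays reached the median, and only just, at 24.2 against a median of 24.1. The fitted log2 change of -1.97 ± 0.49 (adjusted p = 0.0095) there rests on signals at or under the median. Cox8b passed the filter on low signal through normal thymus, the group where it is high, so its test is not independent of that filter. With no filter the adjusted p was 0.0050 in tumor and 0.023 in resistant tumor. Its widespread partner Cox8a rose by 0.44 ± 0.13 in tumor (adjusted p = 0.021) and 0.38 ± 0.13 in resistant tumor (adjusted p = 0.041), with 1996, 2253 and 2452 in resistant tumor, 2070, 2544 and 2416 in tumor, and 1541, 1620 and 2025 in normal thymus. One resistant tumor array thus lay below the highest normal thymus array for Cox8a. Cox8a lost its tumor call without tumor 2, tumor 3, normal thymus 1 or normal thymus 2 (adjusted p up to 0.078), and its resistant tumor call without resistant tumor 2 or 3, tumor 3, or normal thymus 1 or 2 (up to 0.13). Both calls of Cox8b held without any 1 array.

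Muscle and brown fat markers were read beside Cox8b. Of 12 tested skeletal muscle markers 2 fell in tumor, 7 fell in resistant tumor and none rose. Their summed signal was 166 to 643 in resistant tumor, 293 to 963 in tumor and 937 to 992 in normal thymus. By array the muscle sum was 449, 963 and 293 in tumor, beside Cox8b signals of 15.1, 7.2 and 6.4. In resistant tumor it was 166, 643 and 171, beside Cox8b signals of 24.2, 18.6 and 7.4. Of the 4 tested brown fat markers Cidea fell in both tumor groups, 3 rose in tumor and 2 in resistant tumor. The brown fat sum was 281 to 367 in resistant tumor, 516 to 653 in tumor and 112 to 134 in normal thymus, most of it from Elovl3. Ucp1, the marker that defines brown fat, lay at 0.30 to 5.2 in the tumor groups and 14.1 to 17.3 in normal thymus and was not tested. Of 8 cardiac muscle markers 7 were under the array median on every array of each group. The part of these tissues in the Cox8b result was not tested.

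Of the other tissue-restricted isoforms only Cox4i2 was called, and only in resistant tumor. Cox4i2, the lung isoform of subunit IV, had 35.2, 31.0 and 21.0 in resistant tumor, 27.5, 21.9 and 18.6 in tumor, and 20.6, 9.6 and 8.4 in normal thymus, all 3 normal thymus arrays being under the array median. It rose in resistant tumor by at least 1.43-fold (adjusted p = 0.031) and was not called in tumor (0.91 ± 0.41, adjusted p = 0.099). It passed the filter on low signal only through the tumor groups, where it is high, so this call is not independent of the filter. With no filter it was not called (adjusted p = 0.062 in resistant tumor). Cox4i1, its widespread partner, had 2431 to 2744 in resistant tumor, 2460 to 2791 in tumor and 2110 to 2277 in normal thymus, and rose by 0.29 ± 0.09 in tumor (adjusted p = 0.021) and 0.27 ± 0.09 in resistant tumor (adjusted p = 0.029). Cox7a1, the heart and muscle isoform of subunit VIIa, overlapped between resistant tumor (14.4, 26.4 and 43.6) and normal thymus (25.9, 34.7 and 35.0) and was not called, with 37.3, 46.0 and 50.5 in tumor. Cox7a2, its widespread partner, rose by 0.26 ± 0.08 in tumor (adjusted p = 0.032) and 0.25 ± 0.08 in resistant tumor (adjusted p = 0.033). Cox4i2 was not called without resistant tumor 1, resistant tumor 2, normal thymus 2 or normal thymus 3 (adjusted p up to 0.11). Cox4i1 and Cox7a2 lost the tumor call without tumor 2, tumor 3, normal thymus 1 or normal thymus 2 (up to 0.11), Cox7a2 also without normal thymus 3. Both lost the resistant tumor call without resistant tumor 2 or 3 or any 1 normal thymus array (up to 0.10). Beside Cox4i2, 3 of 6 tested pericyte and smooth muscle markers rose and 1 fell in each tumor group, with sums of 544 to 803 in resistant tumor, 472 to 772 in tumor and 527 to 559 in normal thymus; their part in the result was not tested.

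Cox6a2, the heart and muscle isoform of subunit VIa, had 69.0, 65.3 and 112 in resistant tumor, 39.4, 37.8 and 85.0 in tumor, and 50.9, 48.1 and 44.3 in normal thymus. All resistant tumor arrays were above normal thymus, but the change of 0.74 ± 0.33 was not called (adjusted p = 0.096). Cox6a1, its widespread partner, was not called, with 3152 to 3669 in resistant tumor, 3050 to 3215 in tumor and 2638 to 3307 in normal thymus. Ndufa4l2, a relative of Ndufa4 that is known as a target of hypoxia-inducible factor, had 15.6, 10.8 and 98.9 in resistant tumor, 5.0, 43.3 and 66.1 in tumor, and 7.2, 17.8 and 20.2 in normal thymus. The low values in every group were those of arrays without spike-in signal, and the change was not called (0.90 ± 1.06 in resistant tumor, adjusted p = 0.53). With the spike-in set as a term it was called higher in resistant tumor (adjusted p = 0.0053) and not in tumor (adjusted p = 0.11). Ndufa4, whose product is now assigned to complex IV, was counted in complex I by its symbol and was not called in tumor (-0.09 ± 0.19, adjusted p = 0.73). Cox8c, chosen after its values were seen, was high on 1 set of arrays whatever the group: it had 78.0 to 164 on the 4 arrays without spike-in signal and 25.1 to 29.7 on the 5 arrays with it.

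Cox7c, a small subunit of complex IV found in all tissues, fell in both tumor groups by the probe sets tested. Its probe set had 89.5, 73.8 and 77.6 in resistant tumor, 86.4, 125 and 131 in tumor, and 165, 235 and 211 in normal thymus, with no overlap. The log2 change was -0.84 ± 0.20 in tumor (adjusted p = 0.0071) and -1.33 ± 0.20 in resistant tumor (adjusted p = 5.8e-04). A dimmer Cox7c probe set was also lower in both, by 0.74 in tumor and 1.07 in resistant tumor on the log2 scale when tested singly. Both calls held when any 1 array was left out. The Cox7c signals were low beside those of other widespread subunits of the complex, such as Cox4i1 with 2110 to 2277 in normal thymus. Whether these probe sets read the main Cox7c transcript was not tested.

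**Figure D4:**
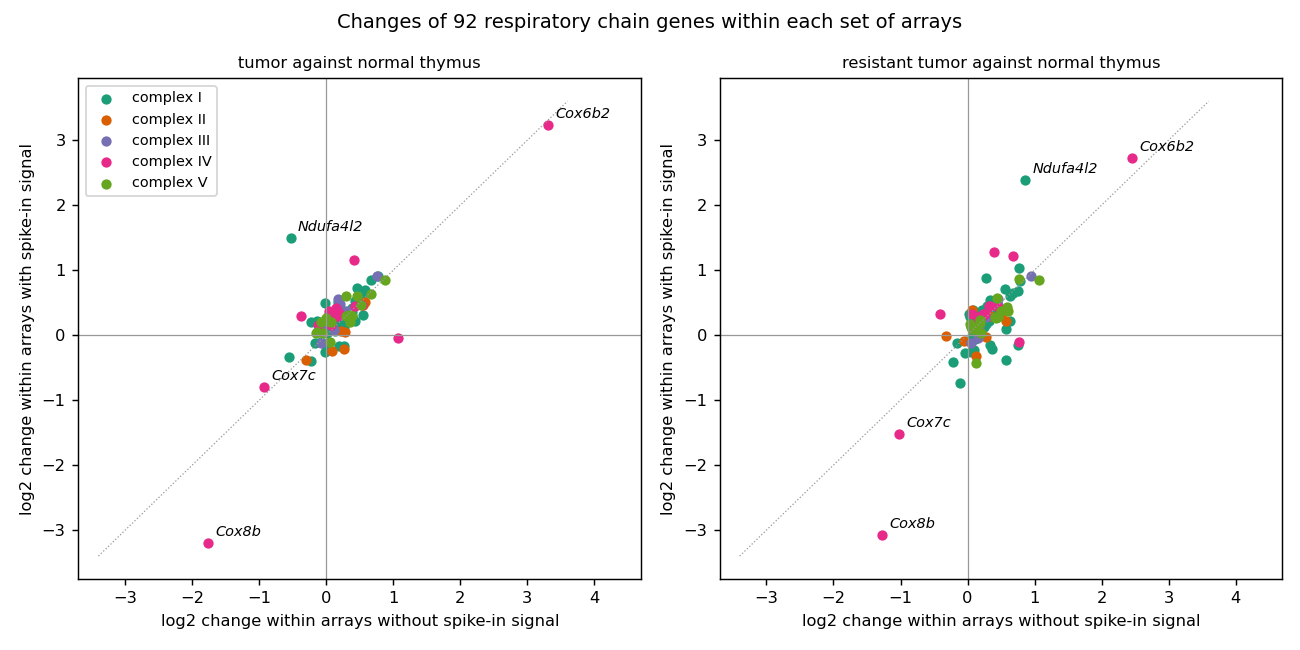
Log2 change of each of the 92 tested genes within the arrays without spike-in signal (horizontal axis) and within the arrays with it (vertical axis), coloured by complex, with the dotted line marking equal change. Cox6b2 (3.31 and 3.23 in tumor, 2.46 and 2.72 in resistant tumor) lies near the line, while Cox8b and Ndufa4l2 changed by different amounts in the 2 sets.

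Between resistant tumor and tumor no member passed the test, where 0.36% of all genes tested were called. A total of 4 members had an unadjusted p under 0.05 (Cox6b2, Cox7c, Sdhb and Cox6c), and none was called under the other settings except Cox6b2 with a block. For 85 of 92 members the 95% interval of the difference lay within 1 on the log2 scale in either direction, as for 8735 of 11671 genes tested. This margin is wide beside the changes of most members, since 79 members also met it in each comparison with normal thymus. The median difference was 0.01 against -0.02 for all genes. Cox6b2 was lower in resistant tumor by 0.88 ± 0.25 on the log2 scale (unadjusted p = 0.0063, adjusted p = 0.30), and lower in both sets of arrays (-0.85 without and -0.51 with spike-in signal). With the spike-in set as a term its adjusted p was 0.027. Cox7c differed by -0.49 ± 0.20 (adjusted p = 0.62). The groups did not overlap for 5 members, 4 higher and 1 lower in resistant tumor, as for 10.4% of all genes (4.41% higher and 6.01% lower). With the spike-in set as a term 0 members were higher and 1 lower, against 0.523% and 0.703% of all genes. No probe set of a member was called singly, against 0.0908% of all probe sets higher and 0.124% lower.

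Promoters are shown for Cox6b2, the member that rose most, with its widespread partner Cox6b1, and for Sdha and Uqcr11, which rose in complexes II and III. Each run is the 250 bases before the annotated start of the gene in RefSeq (GRCm38.p6), written 5′ to 3′ on the gene's strand, which is the minus strand for all 4. Capitals mark matches, on either strand, to an NRF1 motif (GCGCA, any base, then GCGC), an ETS motif (CCGGAAG) or a CCAAT box (CCAAT). NRF1 and the ETS factor GABP are known regulators of nuclear respiratory genes. The windows are chr7:4753095-4753344 for Cox6b2, chr7:30626115-30626364 for Cox6b1, chr13:74350241-74350490 for Sdha and chr10:80406822-80407071 for Uqcr11.
Cox6b2: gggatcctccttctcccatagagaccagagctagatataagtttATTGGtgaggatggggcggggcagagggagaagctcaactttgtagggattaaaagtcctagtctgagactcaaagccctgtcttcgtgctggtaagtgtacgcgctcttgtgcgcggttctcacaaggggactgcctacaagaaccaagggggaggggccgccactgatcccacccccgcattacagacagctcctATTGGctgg
Cox6b1: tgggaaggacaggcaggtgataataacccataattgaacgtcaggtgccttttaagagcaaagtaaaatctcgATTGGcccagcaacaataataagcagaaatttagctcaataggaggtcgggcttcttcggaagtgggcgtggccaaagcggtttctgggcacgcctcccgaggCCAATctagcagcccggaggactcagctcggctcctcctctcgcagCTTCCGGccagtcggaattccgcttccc
Sdha: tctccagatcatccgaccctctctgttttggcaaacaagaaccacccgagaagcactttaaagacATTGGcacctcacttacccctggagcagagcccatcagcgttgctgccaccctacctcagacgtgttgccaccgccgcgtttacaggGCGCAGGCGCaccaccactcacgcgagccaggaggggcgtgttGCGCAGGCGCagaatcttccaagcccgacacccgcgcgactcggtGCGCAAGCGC
Uqcr11: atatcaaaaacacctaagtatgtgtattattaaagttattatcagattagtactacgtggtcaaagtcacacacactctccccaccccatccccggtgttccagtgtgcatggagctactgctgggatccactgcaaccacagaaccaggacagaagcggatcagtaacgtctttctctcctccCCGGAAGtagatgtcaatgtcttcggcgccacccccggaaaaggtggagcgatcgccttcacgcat
The Cox6b2 window held 2 CCAAT boxes and no match to the NRF1 or ETS motif. The Cox6b1 window held 1 ETS motif and 2 CCAAT boxes, the Sdha window 3 NRF1 motifs and 1 CCAAT box, and the Uqcr11 window 1 ETS motif. A match is a description of the letters, not a binding site.

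Windows were found for 78 of the 94 members, 83 windows in all since some genes have several starts. The NRF1 motif was in 15.7% of the member windows and in 3.74% of all 32851 windows of the table, and the ETS motif in 19.3% and 6.91%. The CCAAT box was in 41.0% of member windows and 33.8% of all windows. Of the members that rose in resistant tumor, 3 of 30 had the NRF1 motif, against 8 of 46 tested members that did not rise. The ETS motif was in 3 of 30 and 13 of 46. The TATA box (TATAAA) was in 9.64% of member windows and 12.4% of all windows, and the E-box that Myc binds (CACGTG) in 8.43% and 6.02%. These shares are descriptions and were not tested.

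Genes that work with the chain but lie outside the symbol rule were counted in the same fit. Over all genes tested 23.3% rose and 19.1% fell in tumor, and 23.1% rose and 20.2% fell in resistant tumor. Of 13 tricarboxylic acid cycle genes, which supply NADH and succinate, 6 rose in tumor (46.2%) and 5 in resistant tumor (38.5%), and none fell. Suclg2, the GTP-forming succinyl-CoA ligase subunit, had 723, 613 and 638 in resistant tumor, 733, 779 and 723 in tumor, and 252, 196 and 209 in normal thymus. Its groups were far apart, with changes of 1.77 ± 0.12 in tumor (adjusted p = 5.1e-06) and 1.59 in resistant tumor. Idh3a changed by 0.68 in tumor and 0.69 in resistant tumor, and Mdh2 by 0.49 and 0.55, both called in each.

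Of 7 genes for cytochrome c and for complex III proteins not named Uqcr, 3 rose (42.9%) and 1 fell (14.3%) in each group. Uqcc2 and Uqcc3, both needed to assemble complex III, moved apart: Uqcc2 had 1185, 1348 and 1539 in resistant tumor, 1021, 1496 and 1446 in tumor, and 435, 545 and 617 in normal thymus, a rise of 1.31 in tumor and 1.36 in resistant tumor, while Uqcc3 changed by -0.84 and -0.90. Cyc1, the cytochrome c1 subunit, rose by 0.43 and 0.51. Of 17 cytochrome c oxidase assembly genes, 1 rose (5.88%) and 2 fell (11.8%) in tumor, and 3 rose and 3 fell in resistant tumor (17.6% each), with a median of 0.00 in tumor and -0.05 in resistant tumor. Sco1, a copper chaperone, rose (0.67 and 0.66), while Cox11 (-0.66 and -0.50) and Surf1 (-0.53 and -0.67), which help insert copper and heme, fell.

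Of 14 genes of protein import and cristae, 6 rose in each group (42.9%) and none fell, among them Chchd3 (0.74 in tumor and 0.63 in resistant tumor), Hspa9 (0.72 and 0.65) and Immt (0.53 and 0.64). Of 6 tested nucleotide and phosphate carriers, 2 rose in tumor (33.3%) and 3 in resistant tumor (50%), including the phosphate carrier Slc25a3 (0.40 and 0.47). Atpif1, the inhibitor of ATP synthase, was the 1 of 4 ATP synthase inhibitor and assembly genes called (25%), rising by 0.33 and 0.42. Among 12 regulators of mitochondrial biogenesis, 4 rose (33.3%) and 3 fell (25%) in each group. Myc had 653, 671 and 550 in resistant tumor, 854, 658 and 785 in tumor, and 315, 322 and 308 in normal thymus, and rose by 1.27 ± 0.12 in tumor and 0.98 in resistant tumor. The coactivators Pprc1 (1.23 and 1.09) and Ppargc1b (0.85 and 0.70) rose, and Gabpb1, a subunit of GABP, fell (-0.68 and -0.74). In the lists outside the symbol rule, Bcs1l, Cyc1, Sco1, Atpif1, Surf1 and Slc25a3 in tumor, and Cyc1, Sco1, Cox11 and Vdac1 in resistant tumor, each lost the call without 2 or more of the single arrays. Between resistant tumor and tumor no gene of these lists was called.

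Probe sets of a gene often differed. Of the 185 probe sets 174 passed the filter, and tested singly 46 were higher and 6 lower in tumor, where 19.6% and 16.3% of all 20917 probe sets were called higher and lower. In resistant tumor 51 were higher and 6 lower, against 19.5% and 17.2%. Among 50 members with several passing probe sets, all had the same sign in 37 in tumor and in 39 in resistant tumor. Called probe sets of opposite direction were found in 2 genes, Atp5c1 and Ndufs4.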

How the data were processed

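The deposited values are linear intensity signals, 1 per probe set and array, which the authors computed using MAS5 according to the submitters' processing notes; the version and the detection calls were not given in the sources used here. The trimmed mean of every array, leaving out 2% at each end, was 100.03. Gene symbols came from the platform's gene table, and 10 probe sets with several symbols that include such names were left out.

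Values below 1 were raised to 1 before the log2 transform, and arrays were not normalized further. Probe sets at or above the array median on at least 3 of 9 arrays were kept, and each gene was represented by its probe set of highest mean (11671 genes). The model, fitted over all 9 arrays with limma 3.58.1 (R 4.3.3), had a term for each group, an intensity trend and 6 residual degrees of freedom. Tests were two-sided, and genes with an adjusted p under 0.05 (Benjamini-Hochberg over 11671 genes) were called. The fit was tested on simulated data with log2 changes planted in tumor. It recovered 56% of the changes of 1 and 75% of those of 2, and 2.96% of the calls were false. The simulated noise was independent between arrays and held no spike-in sets, unlike these data. The number of arrays limits the precision.

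Members and gene lists were chosen with earlier results of these data known. Named genes were, per complex and comparison, up to 3 called members with the largest rise and up to 3 with the largest fall among those whose groups do not overlap, the 4 Sdh subunits, the paired isoforms, members whose probe sets were called with opposite sign, the 3 members with the smallest p between resistant tumor and tumor, and up to 3 called genes per other list. Other gene names complete a count. A gene under the median on all 3 arrays of a group has only a bound there, computed from that median. Control rows entered no test, and those of tumor 1 were put in order by name before the spike-in signal was read. Alternatives were no intensity trend, quantile normalization, no filter, an offset of 50 before the log2 transform, equal array medians, single probe sets, a stricter filter at percentile 75, averaging of probe sets, the replicate number or the spike-in set as a block, changes within each set, and leaving out each array. Figures were drawn with matplotlib 3.10.9.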

Additional observations from a re-analysis of the deposited data

How the results depend on the processing

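In tumor against normal thymus, 25 members rose and 3 fell. With equal array medians these counts were 2 and 1, with a replicate block 38 and 5, and with a spike-in set block 44 and 5. The shares of all genes called with equal array medians or with the replicate block are not given here. Leaving out 1 array gave 14 to 35 that rose and 2 to 3 that fell. The members' median change of 0.22 was 0.41 with equal array medians, where the median of all genes was 0.24, and 0.16 to 0.27 without 1 array. In resistant tumor, 36 rose and 2 fell. With equal array medians 2 rose, with a stricter filter 1 fell, with the replicate block 4 fell, and without 1 array 18 to 39 rose and 2 to 4 fell, with 4 that fell without normal thymus 1. The median was 0.20 to 0.28 without 1 array. Between resistant tumor and tumor, 0 members rose or fell, and 1 (Cox6b2) was lower with the replicate block and 1 with the spike-in set block. The median difference of 0.01 was -0.24 with equal array medians, where that of all genes was -0.26, and -0.08 to 0.06 without 1 array. Averaging probe sets turned Atp5c1 to -0.088 in tumor and -0.079 in resistant tumor, and Slc25a3 to -0.12 in tumor. The cause of these changes was not tested. Of 3258 values for single genes under alternatives, 3003 kept their direction and side of the threshold, 222 lost and 30 gained a call, and 3 changed sign.

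Same-numbered arrays had correlations of deviations from their group means of -0.34 to 0.65, positive for the 7 pairs in the same spike-in set and negative for the other 2. Within a set, same-numbered pairs had 0.37 to 0.65 and differently numbered pairs 0.36 to 0.53. The sign went with the spike-in set, so these values cannot tell whether the replicate numbers pair the arrays. Changes within a set have no test, since some groups have 1 array there. Without detection calls, the array median stood in for background, which limits what can be said of Cox8b, Cox4i2 and Ndufa4l2.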
